A study of Danio rerio with 12 samples.

Results

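Integrins, laminins and fibronectin are the receptors and ligands with which embryonic cells hold on to the extracellular matrix. Their genes were taken by symbol from the gene count table: every row whose Ensembl symbol named an integrin alpha or beta subunit, a laminin alpha, beta or gamma chain, or fibronectin. The rule found 50 of the 32520 genes in the table, of which 22 encode integrin alpha subunits, 12 integrin beta subunits, 14 laminin chains and 2 fibronectin. Integrin-binding proteins, itgb3bp among them, LAMP and LAMTOR genes were left out, as was ITGBL1, whose symbol carries no subunit code.

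The libraries were total RNA-seq of whole zebrafish embryos at 12 hours post fertilization, in 4 groups of 3 libraries. H2A.Z-mCherry embryos treated with 5AzadC and H2A.Z-mCherry embryos kept in DMSO carry the genotype label H2A.Z overexpression, H2A.Z being a histone variant and mCherry a red fluorescent protein. Wild-type embryos treated with 5AzadC and wild-type embryos kept in DMSO complete the design, and the adults named in the labels were of the AB/Tuebingen background. 5AzadC is a cytidine analogue that is built into DNA and traps DNA methyltransferases. It was given at 100 µM right after spawning, the solvent control was 0.1% DMSO, and wells held about 50 embryos in 5 mL. The labels state neither the promoter nor the allele behind H2A.Z-mCherry, and give no clutch for any replicate, so p-values measure the spread between these libraries, which may be technical.

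A laminin is built from an alpha, a beta and a gamma chain and forms the first network of a basement membrane, while fibronectin is assembled into fibrils around mesenchyme and somites. An integrin is a pair of an alpha and a beta subunit, and the alpha subunit decides much of which ligand is bound. Inside the cell the beta tail is tied to actin by talin, kindlin and their partners. In zebrafish, fibronectin and integrin alpha5 are known for building somite boundaries, and laminin alpha1, beta1 and gamma1 for the notochord sheath and the eye.

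Library totals ran between 1142051 and 1904063 counts, and 12293 genes passed a filter on low counts and were tested. Levels are given as CPM, a gene's count relative to its library's total, after TMM scaling, a correction for differences in library composition. They serve to compare a gene between groups and not genes with each other, since no transcript length enters them. Of the 50 genes, 24 were tested, 18 had counts but stayed under the filter, and 8 had no count in any library. A gene of low level can pass such a filter through the groups in which it is high, so counts over the 24 describe those genes and say nothing of the other 26.

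With 5AzadC, the laminin genes LAMA1 and LAMA5 and the integrin alpha genes ITGA4 and ITGA9 were lower in both genotypes and the laminin gamma chain gene lamc1 was higher. In H2A.Z-mCherry embryos 7 of the 24 tested genes were called (adjusted p under 0.05, edgeR quasi-likelihood test), 3 higher and 4 lower, which is 29.2% beside 17.9% of all tested genes (8.84% higher and 9.03% lower). In wild-type embryos 9 were called, 2 higher and 7 lower, which is 37.5% beside 22.3% of all tested genes (10.7% higher and 11.7% lower). LAMA1, LAMA5, ITGA4 and ITGA9 were called lower in both genotypes and lamc1 higher in both. Of these, ITGA4 was of low level with 5AzadC and can have passed the filter through the DMSO libraries. The same is true of lamb2l, which was called lower in wild-type embryos only. Both genes are counted in the shares above and in the medians that follow. The median log2 fold change of the 24 was -0.18 in H2A.Z-mCherry embryos, where that of all tested genes was 0.02, and -0.19 in wild-type embryos, where it was 0.01. Treated and control libraries did not overlap for 10 of the 24 in either genotype, beside 33.2% of all tested genes in H2A.Z-mCherry embryos and 35.2% in wild-type embryos. In RNA of whole embryos, fewer cells of a type and less RNA per cell cannot be told apart.

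Taken as summed counts, laminin genes held most of the reads of the 50 genes. They made up 0.42 ± 0.00797% of all counts in the 5AzadC-treated and 0.5116 ± 0.0149% in the DMSO H2A.Z-mCherry libraries (mean ± SD, n = 3 each), and 0.4277 ± 0.0107% in the treated and 0.4974 ± 0.025% in the DMSO wild-type libraries. Every treated library was under every DMSO library in this share. Integrin alpha genes made up 0.0597 ± 0.00636% and 0.0720 ± 0.0038% in the treated and DMSO H2A.Z-mCherry libraries, and 0.0537 ± 0.00364% and 0.0801 ± 0.00371% in the treated and DMSO wild-type libraries, again with no overlap within a genotype. Integrin beta genes made up 0.0331 ± 0.000777% and 0.0277 ± 0.00341% in the treated and DMSO H2A.Z-mCherry libraries, and 0.0278 ± 0.00208% and 0.0309 ± 0.00179% in the treated and DMSO wild-type libraries, so that treated libraries were the higher ones in H2A.Z-mCherry embryos and overlapped with their controls in wild type. Fibronectin genes made up 0.133 ± 0.00804% in treated and 0.133 ± 0.00986% in DMSO H2A.Z-mCherry libraries, and 0.144 ± 0.01% in treated and 0.137 ± 0.00598% in DMSO wild-type libraries, with overlap in both genotypes.

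The 2 fibronectin genes share the symbol FN1 and are told apart by their identifiers. FN1 ENSDARG00000006526 was at 677, 708 and 773 CPM in the 5AzadC-treated H2A.Z-mCherry libraries, against 707, 700 and 808 CPM in their DMSO controls. In wild-type embryos it was at 926, 809 and 881 CPM with 5AzadC, against 744, 710 and 774 CPM with DMSO. All 3 treated wild-type libraries were above the other 9, while treated and control H2A.Z-mCherry libraries overlapped. The log2 fold change was -0.04 ± 0.08 in H2A.Z-mCherry (SE, edgeR adjusted p = 0.826) and 0.23 ± 0.08 in wild-type embryos (adjusted p = 0.0353). The wild-type call rests on single libraries: the adjusted p was 0.14 without treated replicate 1, 0.0668 without treated replicate 3, 0.0823 without DMSO replicate 1 and 0.142 without DMSO replicate 2, and it was 0.0622 with upper quartile scaling and 0.0624 with no filter. The second gene, FN1 ENSDARG00000019815, had 580, 683 and 596 CPM in treated and 581, 570 and 642 CPM in DMSO H2A.Z-mCherry embryos, and 698, 627 and 603 CPM in treated and 582, 632 and 671 CPM in DMSO wild-type embryos. Its groups overlapped in both genotypes, with log2 fold changes of 0.05 ± 0.09 (adjusted p = 0.73) and 0.03 ± 0.09 (adjusted p = 0.831) in H2A.Z-mCherry and wild-type embryos. The count ratio of the first to the second was 1.17 ± 0.13 in treated and 1.237 ± 0.0208 in DMSO H2A.Z-mCherry libraries (mean ± SD, n = 3 each), and 1.36 ± 0.0889 in treated and 1.183 ± 0.085 in DMSO wild-type libraries. The sources used here do not say how reads shared by both genes were counted.

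LAMA5, the laminin alpha5 chain of epithelial basement membranes and in zebrafish needed for the fin fold, had the smallest p of the 50 genes in both responses to 5AzadC. It was at 523, 468 and 470 CPM in treated H2A.Z-mCherry libraries, against 847, 831 and 830 CPM in their DMSO controls. Wild-type libraries had 561, 497 and 525 CPM with 5AzadC, against 995, 915 and 1061 CPM with DMSO. The 6 treated libraries all lay under the 6 DMSO libraries, and the DMSO libraries of H2A.Z-mCherry embryos all lay under those of wild-type embryos. The log2 fold change was -0.78 ± 0.08 (edgeR adjusted p = 1.42e-11) in H2A.Z-mCherry and -0.91 ± 0.09 (adjusted p = 1.6e-14) in wild-type embryos.

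LAMA1 encodes the alpha1 chain, which in zebrafish is known from mutants with notochord and eye defects. Treated H2A.Z-mCherry libraries had 1784, 1720 and 1662 CPM, against 2510, 2251 and 2503 CPM in their DMSO controls. In wild-type embryos it had 1934, 1962 and 1801 CPM with 5AzadC, against 2088, 2218 and 2338 CPM with DMSO. Treated libraries were under their controls in both genotypes, with the wider gap in H2A.Z-mCherry embryos. LAMA1 fell in both, with log2 fold changes of -0.49 ± 0.07 in H2A.Z-mCherry (edgeR adjusted p = 2.13e-07) and -0.22 ± 0.07 in wild-type embryos (adjusted p = 0.0192). In wild-type embryos the adjusted p was 0.143 without treated replicate 3, 0.056 without DMSO replicate 2 and 0.132 without DMSO replicate 3.

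The beta1 and gamma1 chains, which assemble with either alpha chain, were not among the genes called lower. LAMB1 ENSDARG00000101209 was at 1054, 1137 and 976 CPM in treated and 1093, 999 and 1160 CPM in DMSO H2A.Z-mCherry libraries. Wild-type libraries had 1016, 968 and 1158 CPM with 5AzadC, against 901, 915 and 1060 CPM with DMSO. These groups overlapped, and the log2 fold changes were -0.04 ± 0.08 (edgeR adjusted p = 0.813) in H2A.Z-mCherry and 0.13 ± 0.08 (adjusted p = 0.302) in wild-type embryos. The gamma chain gene lamc1 had 897, 970 and 920 CPM in treated H2A.Z-mCherry libraries, against 719, 703 and 728 CPM in their DMSO controls. It had 1017, 924 and 1010 CPM in treated wild-type libraries, against 707, 736 and 729 CPM in their DMSO controls. All 6 treated libraries were above all 6 DMSO libraries. Both rises of lamc1 passed, with log2 fold changes of 0.38 ± 0.08 in H2A.Z-mCherry (adjusted p = 0.000302) and 0.44 ± 0.08 in wild-type embryos (adjusted p = 1.08e-05).

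Because chains of a trimer are counted in the same library, their count ratio does not depend on the scaling between libraries. LAMA5 over lamc1 was 0.525 ± 0.0521 in treated and 1.167 ± 0.0231 in DMSO H2A.Z-mCherry libraries (mean ± SD, n = 3 each), and 0.537 ± 0.016 in treated and 1.367 ± 0.112 in DMSO wild-type libraries. LAMA1 over lamc1 was 1.857 ± 0.117 in treated and 3.377 ± 0.155 in DMSO H2A.Z-mCherry libraries, and 1.933 ± 0.172 in treated and 3.057 ± 0.136 in DMSO wild-type libraries. Each alpha chain had fewer counts per lamc1 count in every treated library than in any DMSO library. The pairs were named with values known, LAMA5 and LAMA1 being lower and lamc1 higher in these same libraries. The ratios therefore describe those changes again and give no separate support. For LAMB1 ENSDARG00000101209 over lamc1 the ratios were 1.137 ± 0.0666 in treated and 1.51 ± 0.0854 in DMSO H2A.Z-mCherry libraries, and 1.066 ± 0.0768 in treated and 1.32 ± 0.114 in DMSO wild-type libraries. LAMA5 over LAMA1 was 0.283 ± 0.0105 in treated and 0.346 ± 0.0201 in DMSO H2A.Z-mCherry libraries, and 0.278 ± 0.022 in treated and 0.448 ± 0.032 in DMSO wild-type libraries, so the alpha5 chain gene was lower relative to the alpha1 chain gene as well. These ratios show unequal change within a library and not which of the 2 genes moved.

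**Figure D1:**
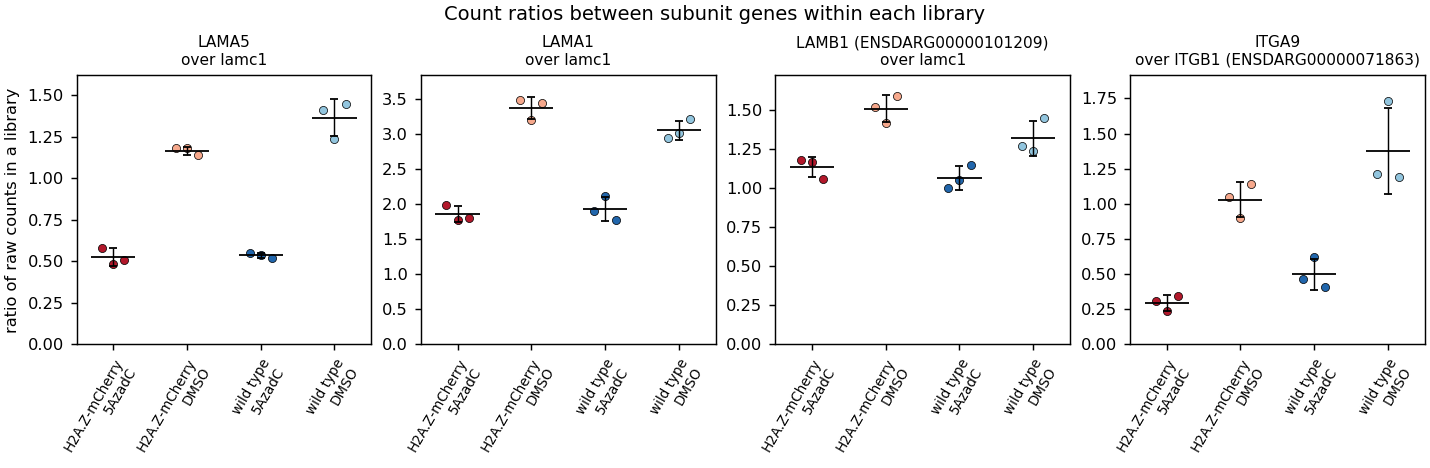
Ratio of raw counts between 2 subunit genes of the same library (vertical axis, no unit), for LAMA5, LAMA1 and LAMB1 over lamc1 and for ITGA9 over ITGB1, in the 4 groups. Points are libraries, lines and bars are mean ± SD (n = 3), and LAMA5 over lamc1 averaged 0.525 and 0.537 in the treated H2A.Z-mCherry and wild-type groups, under the 1.167 and 1.367 of their DMSO groups.

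A beta chain gene of low level, lamb2l, had 36 counts in the treated and 65 in the DMSO H2A.Z-mCherry group and 5 in the treated and 63 in the DMSO wild-type group. It was at 4.52, 9.43 and 7.29 CPM in treated H2A.Z-mCherry libraries, against 10.5, 15.9 and 21.2 CPM in their DMSO controls. In wild-type embryos it was at 1.49, 2.47 and 0 CPM with 5AzadC, against 9.49, 12.7 and 16.9 CPM with DMSO. Treated libraries were lower in both genotypes, and the treated wild-type libraries were lowest of all. Its log2 fold change of -1.13 ± 0.47 in H2A.Z-mCherry embryos did not pass (edgeR adjusted p = 0.0857), and that of -3.17 ± 0.65 in wild-type embryos did (adjusted p = 9.43e-05). The gene was higher in the DMSO libraries and can have passed the filter through them, so its fall is given as description only. The other 2 tested laminin genes were not called. The first, lama4, belongs to vessel basement membranes in mammals. Its log2 fold change was -0.11 ± 0.28 in H2A.Z-mCherry (edgeR adjusted p = 0.837) and -0.79 ± 0.31 in wild-type embryos (adjusted p = 0.0557). Its wild-type groups did not overlap, at 14.0 to 24.6 CPM with 5AzadC against 24.7 to 43.6 CPM with DMSO. The second, LAMB2, had -1.37 ± 0.57 (adjusted p = 0.0844) and -0.69 ± 0.47 (adjusted p = 0.332) in H2A.Z-mCherry and wild-type embryos, with overlap in both.

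ITGA9 and ITGA4 encode related alpha subunits, which in mammals pair with beta1 and bind fibronectin, VCAM1 or tenascin C. ITGA9 was at 48.2, 41.2 and 63.0 CPM in treated H2A.Z-mCherry libraries, against 123, 132 and 155 CPM in their DMSO controls. Wild-type libraries had 71.5, 83.1 and 57.3 CPM with 5AzadC, against 166, 224 and 182 CPM with DMSO. Every treated library lay under every DMSO library of either genotype. ITGA9 fell in both genotypes, with log2 fold changes of -1.41 ± 0.16 in H2A.Z-mCherry (edgeR adjusted p = 1.5e-10) and -1.43 ± 0.16 in wild-type embryos (adjusted p = 1.34e-11). Per count of ITGB1 ENSDARG00000071863, ITGA9 had 0.294 ± 0.0548 counts in treated and 1.029 ± 0.123 in DMSO H2A.Z-mCherry libraries (mean ± SD, n = 3 each), and 0.497 ± 0.113 in treated and 1.377 ± 0.306 in DMSO wild-type libraries. Per count of ITGA5, it had 0.328 ± 0.0607 in treated and 0.968 ± 0.0534 in DMSO H2A.Z-mCherry libraries, and 0.461 ± 0.118 in treated and 1.31 ± 0.271 in DMSO wild-type libraries. ITGA9 was thus lower relative to both a beta subunit gene and another alpha subunit gene, in pairs also named with values known.

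ITGA4 was at 6.77, 2.36 and 15.1 CPM in treated H2A.Z-mCherry libraries, against 25.9, 27.0 and 31.4 CPM in their DMSO controls. In wild-type embryos it was at 3.72, 2.47 and 5.54 CPM with 5AzadC, against 25.9, 34.5 and 38.4 CPM with DMSO. The 6 treated libraries were all below the DMSO libraries, and treated H2A.Z-mCherry libraries spread the most. ITGA4 fell with log2 fold changes of -1.74 ± 0.38 in H2A.Z-mCherry (edgeR adjusted p = 0.000349) and -3.07 ± 0.44 in wild-type embryos (adjusted p = 4.89e-08). Like lamb2l, it was higher in the DMSO libraries and can have passed the filter through them, so its fall is given as description only.

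ITGA6, the alpha subunit of laminin receptors, was at 151, 152 and 159 CPM in treated H2A.Z-mCherry libraries, against 165, 197 and 211 CPM in their DMSO controls. It was at 153, 124 and 128 CPM in treated wild-type libraries, against 204, 220 and 190 CPM in their DMSO controls. Treated libraries were lower in both genotypes. The log2 fold change of -0.31 ± 0.12 in H2A.Z-mCherry embryos did not pass (edgeR adjusted p = 0.0677), although it did without DMSO replicate 1 of that genotype (adjusted p = 0.0278), and that of -0.60 ± 0.13 in wild-type embryos passed (adjusted p = 0.000136). ITGB4, which in mammals pairs with alpha6 in the hemidesmosomes of epithelia, had 14.3, 14.1 and 16.7 CPM in treated and 29.2, 18.2 and 17 CPM in DMSO H2A.Z-mCherry libraries. It had 17.9, 17.3 and 8.31 CPM in treated wild-type libraries, against 27.2, 38.0 and 30.0 CPM in their DMSO controls. Treated libraries were lower in both genotypes, by a narrow gap in H2A.Z-mCherry embryos. Its log2 fold change was -0.50 ± 0.33 in H2A.Z-mCherry (adjusted p = 0.328) and -1.11 ± 0.33 in wild-type embryos (adjusted p = 0.0086, but 0.0938 without treated replicate 3 and 0.0646 without DMSO replicate 2).

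The remaining alpha subunit genes of highest level, ITGA5 and ITGAV, showed no call. ITGA5, the fibronectin receptor alpha subunit, had 160, 144 and 158 CPM in treated and 131, 140 and 150 CPM in DMSO H2A.Z-mCherry libraries, and 169, 140 and 156 CPM in treated and 140, 138 and 162 CPM in DMSO wild-type libraries. Its groups overlapped, with log2 fold changes of 0.13 ± 0.13 (edgeR adjusted p = 0.535) and 0.08 ± 0.13 (adjusted p = 0.714) in H2A.Z-mCherry and wild-type embryos. ITGAV, whose product binds vitronectin and other ligands, had 114, 115 and 149 CPM in treated and 117, 116 and 97.7 CPM in DMSO H2A.Z-mCherry libraries, and 96.8, 88.9 and 127 CPM in treated and 109, 113 and 124 CPM in DMSO wild-type libraries. These also overlapped, with log2 fold changes of 0.20 ± 0.15 (adjusted p = 0.396) and -0.15 ± 0.15 (adjusted p = 0.543).

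Of the genes named ITGB1, the beta subunit that most alpha subunits share, 2 had over 100 CPM on average. ITGB1 ENSDARG00000071863 was at 158, 176 and 184 CPM in treated H2A.Z-mCherry libraries, against 118, 147 and 135 CPM in their DMSO controls. Wild-type libraries had 154, 133 and 141 CPM with 5AzadC, against 138, 129 and 153 CPM with DMSO. Treated H2A.Z-mCherry libraries were above the other 9, and the wild-type groups overlapped. ITGB1 ENSDARG00000104484 was at 129, 126 and 105 CPM in treated and 70.5, 88.8 and 109 CPM in DMSO H2A.Z-mCherry libraries, and at 103, 97.1 and 112 CPM in treated and 84.7, 102 and 100 CPM in DMSO wild-type libraries, with overlap in both genotypes. Both rose in H2A.Z-mCherry embryos, with log2 fold changes of 0.37 ± 0.13 (edgeR adjusted p = 0.0346) and 0.43 ± 0.16 (adjusted p = 0.0464), against 0.03 ± 0.13 (adjusted p = 0.903) and 0.12 ± 0.16 (adjusted p = 0.653) in wild-type embryos.

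Neither ITGB1 call was firm. The adjusted p of ENSDARG00000071863 in H2A.Z-mCherry embryos was 0.0628 with DESeq2, 0.0505 with no filter, 0.0986 and 0.142 without treated replicates 2 and 3, and 0.187 and 0.0838 without DMSO replicates 1 and 3. That of ENSDARG00000104484 was 0.0956 with DESeq2, 0.146 and 0.15 without treated replicates 1 and 2, 0.288 and 0.104 without DMSO replicates 1 and 2, and 0.0548 and 0.0525 without wild-type DMSO replicates 2 and 3. Other scalings (0.0525 and 0.0539), no filter (0.0571) and the fit to H2A.Z-mCherry libraries alone (0.052) ended it too. How reads shared between the ITGB1 genes were counted is not said in the sources used here either.

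**Figure D2:**
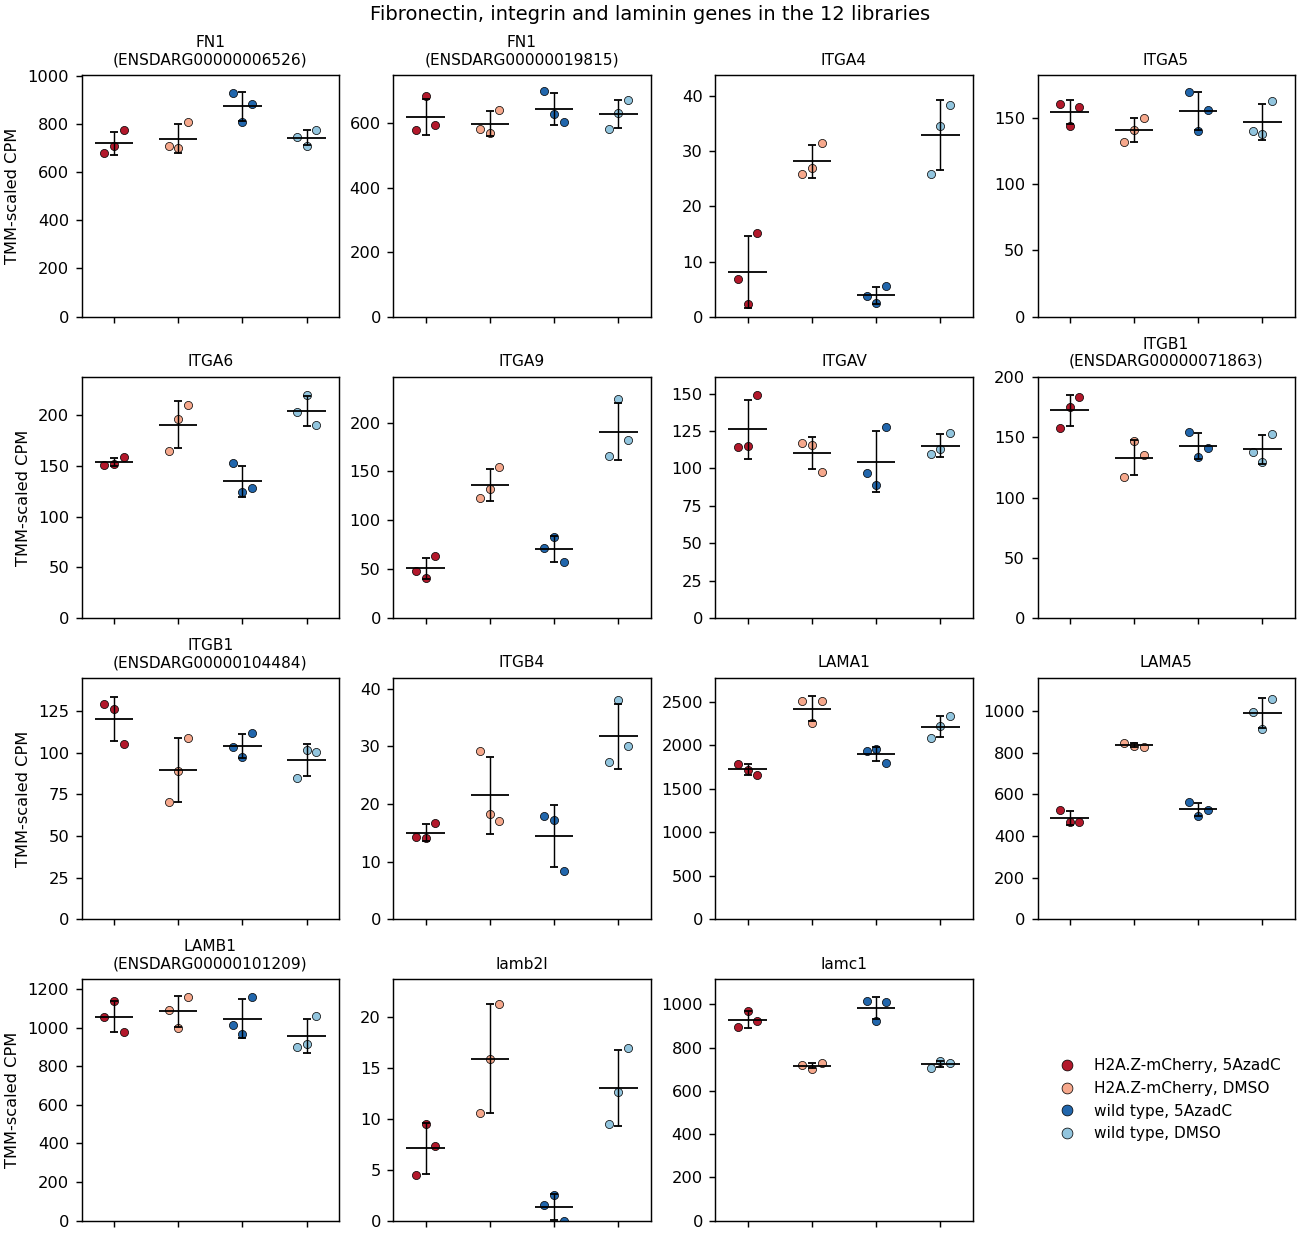
TMM-scaled CPM (vertical axes, from 0) of 15 tested genes, those called in any comparison and the most abundant of each class, in the 4 groups marked by colour. Points are libraries, lines and bars are mean ± SD (n = 3), and the treated libraries of LAMA5, ITGA4 and ITGA9 lie under the DMSO libraries in both genotypes while those of lamc1 lie above.

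The other tested genes, 9 in number, were called in no comparison and had mean levels between 4.23 and 72.4 CPM. They were ITGA3, ITGA8, ITGA10, ITGA11 ENSDARG00000036086, ITGB1 ENSDARG00000053232, ITGB5, ITGB6, lama4 and LAMB2. Their log2 fold changes ran from -1.87 to 0.11 in H2A.Z-mCherry and from -0.89 to 0.23 in wild-type embryos. The lowest of these was that of ITGA8, named here after its values were seen, with 2.26, 1.77 and 3.12 CPM in treated and 11.3, 8.23 and 7.65 CPM in DMSO H2A.Z-mCherry libraries. Those groups did not overlap, and the log2 fold change of -1.87 ± 0.70 missed the threshold (edgeR adjusted p = 0.0507). ITGA8 was highest in these DMSO libraries and can have passed the filter through them, so the gap is given as description only. In wild-type embryos ITGA8 had 2.98, 1.65 and 4.62 CPM with 5AzadC, against 5.06, 5.18 and 4.56 CPM with DMSO, and its log2 fold change was -0.68 ± 0.74 (adjusted p = 0.569). Genes of low level had the larger errors. Among the 12 tested genes with a mean of 100 CPM or more the SE of the log2 fold change with 5AzadC was 0.0729 to 0.165. Among the 12 under 100 CPM it was 0.185 to 0.932.

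The 18 genes with counts under the filter had between 1 and 79 counts over the 12 libraries, with a median of 25. ITGB8, whose product in mammals binds latent TGF-beta, had 19 and 19 counts in the treated and DMSO H2A.Z-mCherry groups and 7 and 34 in the treated and DMSO wild-type groups. The beta chain gene lamb4 had 11 and 22 counts in the treated and DMSO H2A.Z-mCherry groups and 7 and 2 in the treated and DMSO wild-type groups. These sums are descriptions over 3 libraries each, and no test was made of them. No count in any library was found for itga2.1, itga2.3, itga6b, itgae.1, itgae.2, itgb2, itgb7 and lama3, which include subunits that mammals use in leukocytes.

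**Figure D3:**
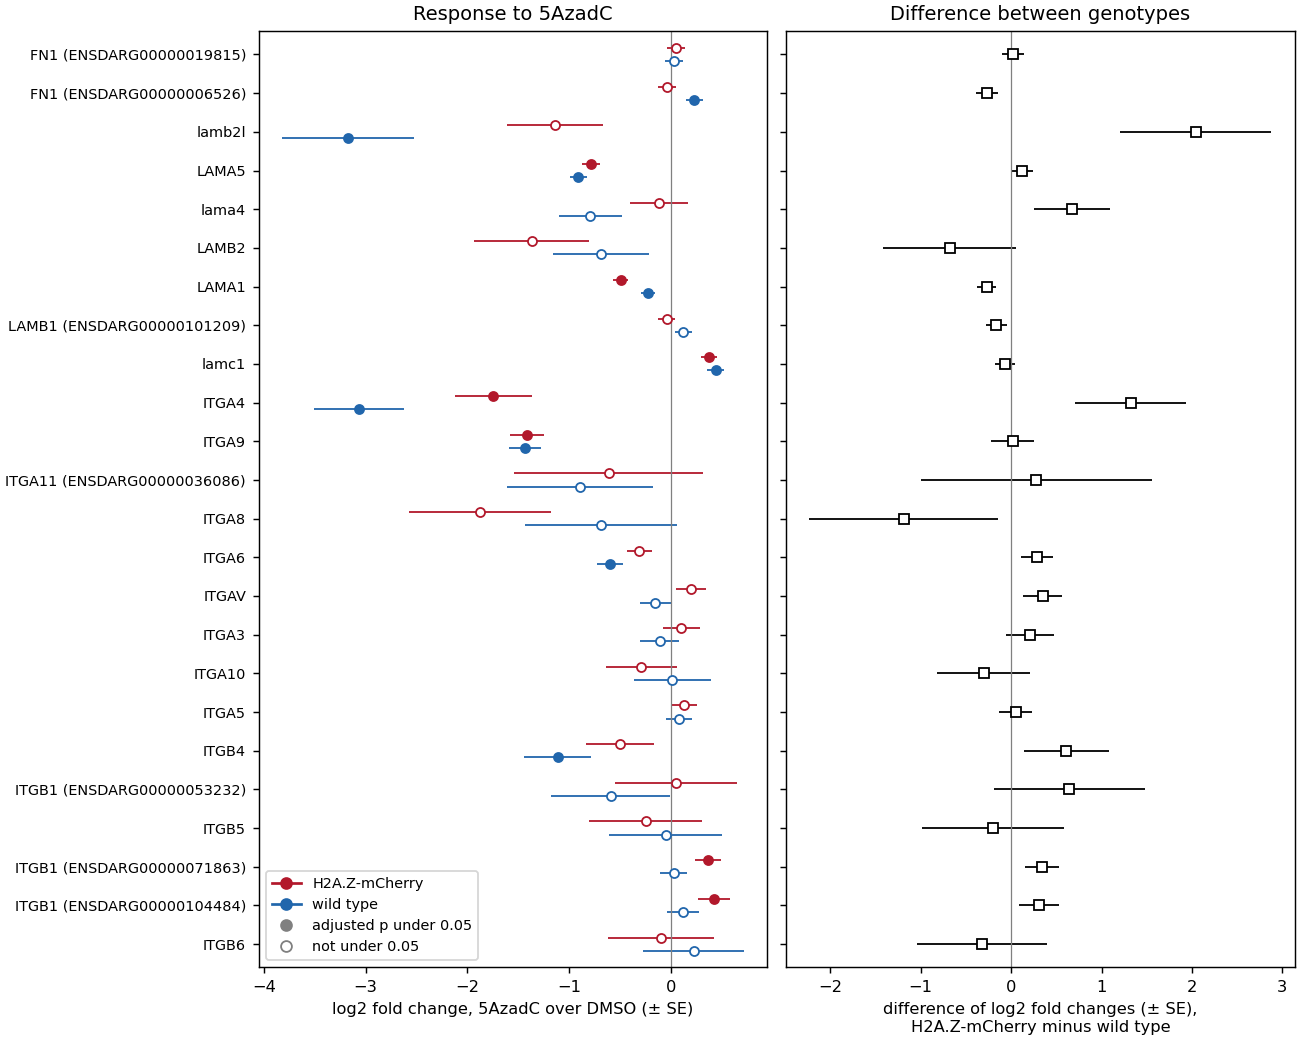
Log2 fold change of the 24 tested genes with 5AzadC over DMSO in each genotype (left, horizontal axis) and the difference between these responses, H2A.Z-mCherry minus wild type (right), with bars for ± SE. Filled circles passed an adjusted p of 0.05, no square on the right did in edgeR, and the widest bars belong to genes of low level.

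Between genotypes, few of these genes were called. Under 5AzadC, 2 of the 24 were called between H2A.Z-mCherry and wild-type embryos, which is 8.33% beside 15.6% of all tested genes (8% higher and 7.61% lower in H2A.Z-mCherry). FN1 ENSDARG00000006526 was lower in H2A.Z-mCherry embryos, with the 719 ± 48.7 CPM of their treated libraries against 872 ± 59.0 CPM in wild type (mean ± SD, n = 3 each) and a log2 fold change of -0.28 ± 0.08 (edgeR adjusted p = 0.015). This call ended without treated H2A.Z-mCherry replicate 1 (adjusted p = 0.0806) or 2 (0.0586) and without treated wild-type replicate 1 (0.0841). The gene lamb2l, at 36 counts over the treated H2A.Z-mCherry and 5 over the treated wild-type libraries, was called higher in H2A.Z-mCherry embryos, with 7.08 ± 2.46 CPM against 1.32 ± 1.24 CPM and a log2 fold change of 2.32 ± 0.70 (adjusted p = 0.0135). It passed the filter with the DMSO libraries, where it was higher, and stayed under it when only the compared groups were fitted. The call also ended without treated H2A.Z-mCherry replicate 2 (adjusted p = 0.0651) or treated wild-type replicate 3 (0.0821). ITGA9, lower in H2A.Z-mCherry (log2 fold change -0.47, adjusted p = 0.0584), passed there without treated replicate 3 of H2A.Z-mCherry (adjusted p = 0.0187) or of wild type (0.021). ITGA4, higher in H2A.Z-mCherry (1.09, adjusted p = 0.15), passed without treated H2A.Z-mCherry replicate 2 (0.0338). ITGA4 too was higher in the DMSO libraries and can have passed the filter through them. Groups did not overlap for 4 of the 24, beside 30.4% of all tested genes. Of the tested markers under 5AzadC, 1 epidermal and periderm marker was higher and 9 of 11 were lower in H2A.Z-mCherry than in wild-type embryos, a share of 90.9% beside 15.6% of all tested genes. In the same comparison 6 of 15 neural and 2 of 10 muscle markers were higher. The part of these marker differences was not tested.

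In DMSO, 1 of the 24 was called, which is 4.17% beside 5.32% of all tested genes (2.73% higher and 2.59% lower in H2A.Z-mCherry). This was ITGA9, with 137 ± 16.3 CPM in H2A.Z-mCherry and 191 ± 29.6 CPM in wild-type embryos (mean ± SD, n = 3 each) and a log2 fold change of -0.49 ± 0.15 (edgeR adjusted p = 0.0325). The call ended with DESeq2 (adjusted p = 0.133), without H2A.Z-mCherry DMSO replicates 1 (0.155) or 2 (0.129), and without wild-type DMSO replicates 2 (0.304) or 3 (0.0616). LAMA5 was 836 ± 9.28 CPM in H2A.Z-mCherry and 990 ± 73.0 CPM in wild-type embryos, with a log2 fold change of -0.24 ± 0.08 that missed the threshold in edgeR (adjusted p = 0.069) and passed it in DESeq2 (adjusted p = 0.0475). Groups did not overlap for 4 of the 24, beside 21.5% of all tested genes. Of the tested markers in DMSO, 6 of 11 epidermal and periderm markers were higher and 2 lower in H2A.Z-mCherry than in wild-type embryos, a share of 72.7% beside 5.32% of all tested genes. In the same comparison 1 of 15 neural markers was higher and 1 lower, and 2 of 10 muscle markers were lower. Their part was not tested.

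Whether the response to 5AzadC differed between genotypes was tested as the difference of the log2 fold changes, H2A.Z-mCherry minus wild type. None of the 24 passed in edgeR, beside 3.75% of all tested genes (1.9% higher and 1.85% lower). Of the 24, 4 had an unadjusted edgeR p under 0.05 and DESeq2 called 1. The shares of all genes at an unadjusted p under 0.05 and in DESeq2 are not given here, so these counts show no excess. The gene called by DESeq2 was LAMA1, with a difference of -0.27 ± 0.10 and an adjusted p of 0.14 in edgeR and 0.0335 in DESeq2. The other 3 were lamb2l at 2.04 ± 0.84 (edgeR adjusted p = 0.179), ITGA4 at 1.32 ± 0.61 (0.253) and FN1 ENSDARG00000006526 at -0.27 ± 0.12 (0.225). For ITGA9 the difference was 0.02 ± 0.24 (0.98), for LAMA5 0.12 ± 0.12 (0.672) and for lamc1 -0.07 ± 0.11 (0.838). The calls made in 1 genotype only, those of FN1, lamb2l, ITGA6, ITGB4 and the ITGB1 genes, are thus not shown to differ between genotypes. The genes of the 4 lowest p-values here and the gene pairs of the count ratios were named with values known.

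Genes of the same pathway were counted in 3 lists. A list gene of low level can also pass the filter through the groups in which it is high. The counts below therefore describe the tested genes of each list only. The intracellular list of talins, kindlins, parvins, tensins, focal adhesion kinases and their partners had 28 tested genes. In H2A.Z-mCherry embryos 1 was higher and 6 were lower with 5AzadC, with a median log2 fold change of -0.30, and in wild-type embryos none was higher and 12 were lower, with a median of -0.41. These are 25% and 42.9% of the list in H2A.Z-mCherry and wild-type embryos, beside 17.9% and 22.3% of all tested genes. The 12 include tln2b, tns1a and tns2b, named after their values were seen. In wild-type embryos these had means of 5.03, 0.274 and 2.52 CPM with 5AzadC, against 25.9, 10.2 and 12.2 CPM with DMSO. They can have passed the filter through the DMSO libraries, so their falls are description only. TLN1, a talin that ties beta integrin tails to actin, was at 171 ± 16.3 CPM in treated and 333 ± 4.22 CPM in DMSO H2A.Z-mCherry libraries, and at 132 ± 20.5 CPM in treated and 325 ± 13.4 CPM in DMSO wild-type libraries (mean ± SD, n = 3 each). Its log2 fold change was -0.96 ± 0.11 in H2A.Z-mCherry (edgeR adjusted p = 1.02e-10) and -1.30 ± 0.12 in wild-type embryos (adjusted p = 1.44e-15). The tensin TNS1, another actin linker, had 26.6 ± 8.41 CPM in treated and 67.3 ± 7.81 CPM in DMSO H2A.Z-mCherry libraries, and 14.6 ± 4.54 CPM in treated and 76.5 ± 12.1 CPM in DMSO wild-type libraries. TLN2, the focal adhesion kinase gene PTK2 and the kindlin gene FERMT2 also fell in both genotypes, with log2 fold changes of -0.47 ± 0.12, -0.60 ± 0.16 and -0.50 ± 0.14 in H2A.Z-mCherry and of -0.67 ± 0.13, -0.88 ± 0.16 and -0.77 ± 0.14 in wild-type embryos. The tensin TNS1 had the largest of these changes, with log2 fold changes of -1.33 ± 0.23 and -2.38 ± 0.26.

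In H2A.Z-mCherry embryos the call of PTK2 ended without treated replicate 1 (edgeR adjusted p = 0.053) and that of FERMT2 without DMSO replicate 1 (0.0732). The gene of this list that rose was PARVA ENSDARG00000043710, a parvin that binds integrin-linked kinase, at 79.6 ± 3.06 CPM in treated and 45.3 ± 7.11 CPM in DMSO H2A.Z-mCherry libraries (log2 fold change 0.82 ± 0.20, adjusted p = 0.00174). In wild-type embryos its log2 fold change was 0.41 ± 0.20 (adjusted p = 0.155, and 0.0442 without DMSO replicate 1).

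The list of matrix partners, other proteins of the extracellular matrix and basement membrane, had 21 tested genes. Of these, none was higher and 8 were lower in H2A.Z-mCherry embryos (median log2 fold change -0.44), and 1 was higher and 9 were lower in wild-type embryos (median -0.47). These are 38.1% and 47.6% of the list, beside the same 17.9% and 22.3% of all tested genes. AGRN, a proteoglycan that binds laminin and dystroglycan, was at 69.9 ± 19.6 CPM in treated and 208 ± 16.6 CPM in DMSO H2A.Z-mCherry libraries, and at 46.6 ± 13.3 CPM in treated and 213 ± 35.1 CPM in DMSO wild-type libraries (mean ± SD, n = 3 each). The log2 fold change was -1.59 ± 0.16 in H2A.Z-mCherry (edgeR adjusted p = 8.56e-12) and -2.20 ± 0.17 in wild-type embryos (adjusted p = 3.43e-16). The hemicentin gene hmcn2 fell in both genotypes (log2 fold changes -0.96 ± 0.11 and -0.60 ± 0.11), and the related HMCN1 had -0.44 ± 0.11 in H2A.Z-mCherry (adjusted p = 0.0035) and -0.16 ± 0.12 in wild-type embryos (adjusted p = 0.34). Genes of the Fraser complex, which anchors epidermis to its basement membrane, were among them, but not all fell in both genotypes. One of these genes, frem1b, named after its values were seen, was the 1 gene called higher in wild-type embryos (log2 fold change 0.41, edgeR adjusted p = 0.00279). In H2A.Z-mCherry embryos frem1b was lower (-0.40, adjusted p = 0.00585, but 0.0691 without DMSO replicate 3). The gene fras1 was at 184 ± 14.0 CPM in treated and 242 ± 26.2 CPM in DMSO H2A.Z-mCherry libraries, and at 255 ± 20.5 CPM in treated and 428 ± 18.7 CPM in DMSO wild-type libraries. It had log2 fold changes of -0.40 ± 0.11 in H2A.Z-mCherry (adjusted p = 0.00517, but 0.0605 without treated replicate 3 and 0.0511 without DMSO replicate 1) and -0.75 ± 0.10 in wild-type embryos (adjusted p = 1.64e-08).

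Of the FREM2 genes, ENSDARG00000102626 fell with log2 fold changes of -1.65 ± 0.42 in H2A.Z-mCherry (edgeR adjusted p = 0.00257) and -1.27 ± 0.38 in wild-type embryos (adjusted p = 0.0104, but 0.0557 and 0.115 without treated replicates 1 and 2). It was at 6.25 ± 3.08 CPM in treated and 19.3 ± 4.56 CPM in DMSO H2A.Z-mCherry libraries (mean ± SD, n = 3 each). In wild-type libraries it was at 11.6 ± 7.87 CPM in treated and 27.6 ± 4.14 CPM in DMSO. This gene was higher in the DMSO libraries and can have passed the filter through them, so its fall is given as description only. The other FREM2 gene, ENSDARG00000076856, had -0.35 ± 0.20 in H2A.Z-mCherry (adjusted p = 0.222) and fell with -1.11 ± 0.22 in wild-type embryos (adjusted p = 3.57e-05). TGFBI, a matrix protein that binds integrins, was at 115 ± 24.2 CPM in treated and 98.8 ± 9.80 CPM in DMSO H2A.Z-mCherry libraries, and at 72.4 ± 3.84 CPM in treated and 116 ± 8.76 CPM in DMSO wild-type libraries. Its log2 fold change was 0.21 ± 0.15 in H2A.Z-mCherry (adjusted p = 0.396) and -0.69 ± 0.16 in wild-type embryos (adjusted p = 0.00074).

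The third list held matrix receptors other than integrins and proteins that associate with matrix receptors, CD151 and dystrophin among the latter. It had 7 tested genes, of which 1 was higher and none lower in H2A.Z-mCherry embryos, and 1 was higher and 2 were lower in wild-type embryos. The share in H2A.Z-mCherry embryos, 14.3%, is under the 17.9% of all tested genes, and that in wild-type embryos is 42.9% beside 22.3%. The gene higher in both was CD151 ENSDARG00000068629, a tetraspanin that sits beside laminin-binding integrins, at 50.2 ± 7.19 CPM in treated and 22.2 ± 5.32 CPM in DMSO H2A.Z-mCherry libraries, and at 65.4 ± 12.0 CPM in treated and 23.7 ± 2.86 CPM in DMSO wild-type libraries (mean ± SD, n = 3 each). The log2 fold change was 1.16 ± 0.25 in H2A.Z-mCherry (edgeR adjusted p = 0.000327) and 1.47 ± 0.24 in wild-type embryos (adjusted p = 1.5e-06). DAG1, the dystroglycan that binds laminin alpha chains, was at 725 ± 18.4 CPM in treated and 738 ± 16.6 CPM in DMSO H2A.Z-mCherry libraries, and at 507 ± 17.9 CPM in treated and 771 ± 30.2 CPM in DMSO wild-type libraries. Its log2 fold change was -0.03 ± 0.08 in H2A.Z-mCherry (adjusted p = 0.871) and -0.60 ± 0.08 in wild-type embryos (adjusted p = 1.48e-08). For the dystrophin gene dmd it was -0.27 ± 0.15 in H2A.Z-mCherry (adjusted p = 0.216) and -0.53 ± 0.15 in wild-type embryos (adjusted p = 0.00487).

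**Figure D4:**
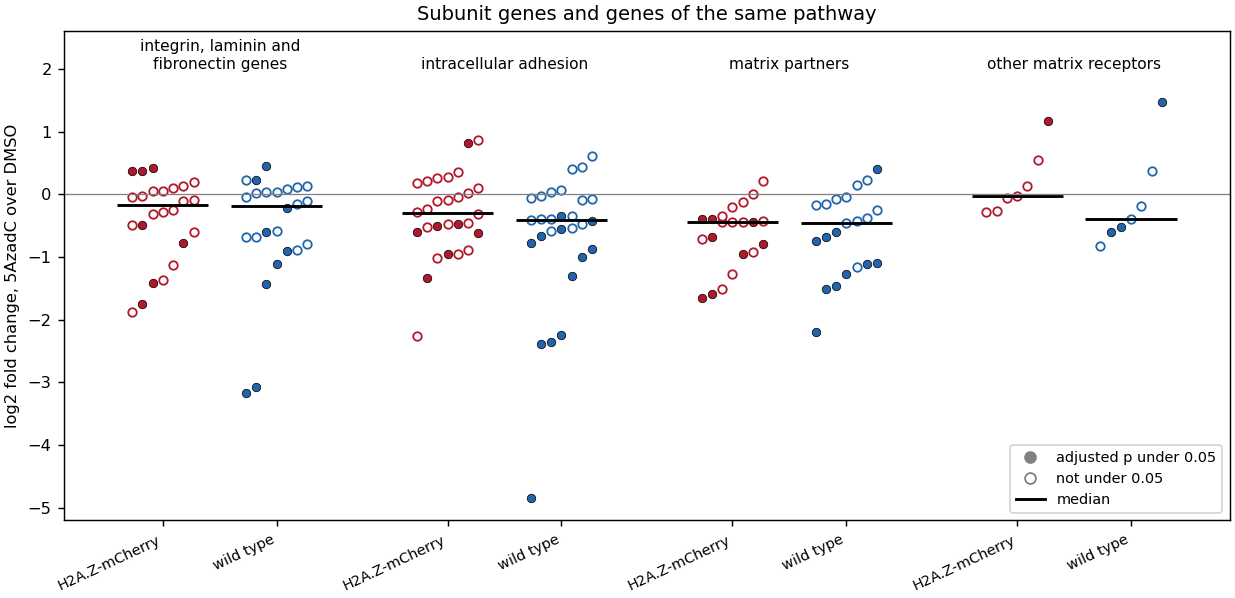
Log2 fold change with 5AzadC over DMSO (vertical axis) of the tested integrin, laminin and fibronectin genes and of the 3 pathway lists, in each genotype. Each point is a gene, filled where its adjusted p was under 0.05, and bars are medians, which run from -0.47 to -0.03 over the lists and genotypes.

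Markers of several tissues were also called with 5AzadC, to be read beside 17.9% of all tested genes called in H2A.Z-mCherry and 22.3% in wild-type embryos. Of 10 tested skeletal muscle markers, none was higher and 4 were lower in H2A.Z-mCherry embryos, and none was higher and 7 were lower in wild-type embryos, shares of 40% and 70%. Their summed level was 2779 to 3684 CPM in treated and 5311 to 5673 CPM in DMSO H2A.Z-mCherry libraries, and 2507 to 2720 CPM in treated and 5678 to 6520 CPM in DMSO wild-type libraries, with TNNC2 at 0 throughout and myhz2 at 0 in the wild-type DMSO group. This sum is mostly that of 2 TTN genes, which encode titin. TTN ENSDARG00000000563 was at 1578 ± 251 CPM in treated and 2640 ± 143 CPM in DMSO H2A.Z-mCherry libraries, and at 1211 ± 99.7 CPM in treated and 2784 ± 199 CPM in DMSO wild-type libraries (mean ± SD, n = 3 each). Of 15 neural markers, 1 was higher and 6 were lower in H2A.Z-mCherry and none was higher and 11 were lower in wild-type embryos, shares of 46.7% and 73.3%. Neural sums were 886.8 to 960.6 CPM in treated and 1091 to 1146 CPM in DMSO H2A.Z-mCherry libraries and 543 to 704.7 CPM in treated and 1007 to 1147 CPM in DMSO wild-type libraries, and no neural marker was at 0. Of 11 tested epidermal and periderm markers, 5 were higher in H2A.Z-mCherry and 9 in wild-type embryos and none was lower, shares of 45.5% and 81.8%. Their sums were 5244 to 6634 CPM in treated and 4527 to 5588 CPM in DMSO H2A.Z-mCherry libraries, and 10410 to 12650 CPM in treated and 5679 to 6456 CPM in DMSO wild-type libraries. A large part of these sums is krt4. It was at 1872 ± 196 CPM in treated and 1720 ± 217 CPM in DMSO H2A.Z-mCherry libraries, and at 6435 ± 783 CPM in treated and 3506 ± 254 CPM in DMSO wild-type libraries. The markers cldni and epcam were at 0 in all groups, and krt18a.1 and krt18b in both H2A.Z-mCherry groups. The part of these marker changes in those of the integrin, laminin and fibronectin genes was not tested.

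Markers of other tissues were counted as well. Of 12 tested somite markers, 2 were higher in H2A.Z-mCherry and 3 in wild-type embryos and none was lower, shares of 16.7% and 25% that are near those of all tested genes. Their sums were 1016 to 1126 CPM in treated and 903.6 to 940.9 CPM in DMSO H2A.Z-mCherry libraries, and 909.6 to 999.4 CPM in treated and 844.5 to 851.9 CPM in DMSO wild-type libraries, with mespba at 0 in both H2A.Z-mCherry groups and PCDH8 in the treated wild-type group. Of 4 tested hatching gland markers, 2 were higher in H2A.Z-mCherry and 3 in wild-type embryos and none was lower (50% and 75%), with sums of 441 to 631.6 CPM in treated and 400.3 to 453 CPM in DMSO H2A.Z-mCherry libraries, and of 510.7 to 613.3 CPM in treated and 350.4 to 393.6 CPM in DMSO wild-type libraries. No hatching gland marker was at 0. Of 7 notochord and of 8 neural crest markers, 1 each was lower in either genotype (14.3% and 12.5% of the list), and of 4 blood and endothelial markers none was called. The notochord marker was FOXA1, with means of 10.2 CPM in treated and 21.6 CPM in DMSO H2A.Z-mCherry libraries. In wild-type libraries it had 3.85 CPM in treated and 26.8 CPM in DMSO. FOXA1 can have passed the filter through the DMSO libraries, so its fall is description only. The part of the markers of these tissues in the changes was not tested either.

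In the authors' deposited table for H2A.Z-mCherry embryos, 22 of the 50 genes had an adjusted p, and 1 was higher and 4 were lower with 5AzadC under the same threshold of 0.05. In the authors' deposited table for wild-type embryos, 28 had an adjusted p, and 2 were higher and 7 were lower. These 5 and these 9 genes were all called here too, and the sign of the log2 fold change was the same for all 24 tested genes in both tables. The ITGB1 genes called here in H2A.Z-mCherry embryos had adjusted p-values of 0.0649 for ENSDARG00000071863 and 0.0989 for ENSDARG00000104484 in the authors' deposited table.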

How the data were processed

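Total RNA-seq of 12 libraries from zebrafish embryos was used, 3 in each of 4 groups taken from the sample titles. The authors deposited raw counts per Ensembl gene, and the submitters' processing notes name STAR, featureCounts 2.0.3, Subread, DESeq2 1.22.2, deepTools and the GRCz11 build. The sources used here do not give the annotation release, strand setting or treatment of multi-mapped reads. The authors' deposited DESeq2 tables give a mean normalized signal, a log2 fold change, its standard error and test statistic (each a score here) and p-values for 5AzadC against DMSO in each genotype, per the file headers.

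Counts were fitted with edgeR 4.0.16 in R 4.3.3 (filterByExpr, TMM factors, robust quasi-likelihood F test, 1 coefficient for each of the 4 groups, all 12 libraries). Benjamini-Hochberg adjustment ran over all 12293 genes tested, with calls at an adjusted p under 0.05. The filter kept 98.5% of the counts. The standard error of a log2 fold change was taken from its size and F statistic. CPM values are TMM-scaled. The common biological coefficient of variation was 14.8%. Steps were tested on simulated data with known changes. Alternatives were DESeq2 1.42.0, other scaling factors, no filter, a replicate block, only the compared groups, and each library left out in turn.

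Values per library are given for genes called in any comparison and for the 3 of highest mean CPM of each class. Pathway genes are named where called in both genotypes in the same direction, or among the 5 with the smallest p of their list in a response. Some genes are not reported here. The genes and lists were chosen with earlier results of these data known. Replicates of a group differed beyond sampling noise (chi-square per degree of freedom 2.37 to 3.08).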

Additional observations from a re-analysis of the deposited data

Results flagged for a closer look

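No integrin, laminin or fibronectin gene passed the edgeR test of a response to 5AzadC that differs between genotypes, beside 3.75% of all tested genes. DESeq2 called LAMA1 (adjusted p = 0.0335), and 4 of the 24 had an unadjusted edgeR p under 0.05. The 3.75% does not apply to these counts, and no share of all genes is given for them. Of the pathway lists, 1 of 28 intracellular genes, 2 of 21 matrix partners and 1 of 7 genes of the third list passed the edgeR test. Their values are the response in H2A.Z-mCherry embryos minus that in wild-type embryos on the log2 scale, and each is given because the test of that difference passed. DAG1 differed by 0.578 (edgeR adjusted p = 0.00075), with log2 fold changes of -0.03 ± 0.08 in H2A.Z-mCherry and -0.60 ± 0.08 in wild-type embryos. TGFBI differed by 0.892 (adjusted p = 0.0102), with 0.21 ± 0.15 in H2A.Z-mCherry and -0.69 ± 0.16 in wild-type embryos, and the call ended without treated H2A.Z-mCherry replicate 1 (adjusted p = 0.0837). The next 2 were named after their values were seen. The Fraser complex gene frem1b differed by -0.804 (adjusted p = 0.000277), with 217 ± 25.6 CPM in treated and 288 ± 32.5 CPM in DMSO H2A.Z-mCherry libraries, and 352 ± 45.7 CPM in treated and 266 ± 8.06 CPM in DMSO wild-type libraries (mean ± SD, n = 3 each). It was lower with 5AzadC in H2A.Z-mCherry embryos (log2 fold change -0.40 ± 0.11, adjusted p = 0.00585, but 0.0554 without treated replicate 2 and 0.0691 without DMSO replicate 3) and higher in wild-type embryos (0.41 ± 0.11, adjusted p = 0.00279). The paxillin gene PXN ENSDARG00000088590 differed by 1.18 (adjusted p = 0.0399), with 46.3 ± 8.52 CPM in treated and 40.8 ± 9.56 CPM in DMSO H2A.Z-mCherry libraries, and 26.1 ± 12.7 CPM in treated and 53.0 ± 9.44 CPM in DMSO wild-type libraries. That call ended with DESeq2 (adjusted p = 0.0809) and on leaving out any of 8 libraries: treated H2A.Z-mCherry replicates 2 (0.0687) and 3 (0.14), DMSO H2A.Z-mCherry replicates 1 (0.0772) and 3 (0.132), treated wild-type replicates 1 (0.123) and 3 (0.161), and DMSO wild-type replicates 2 (0.0587) and 3 (0.13). In the same comparison 7 of 11 epidermal and periderm markers had a lower, and 4 of 10 muscle and 3 of 15 neural markers a higher, response in H2A.Z-mCherry than in wild-type embryos, and their part in these 4 values was not tested.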

How the results depend on the processing

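Over the genes named and all alternatives, 1537 values kept their direction and side of the threshold, 63 fell short of it, 7 came to pass it and 14 changed sign. The sign changes came from leaving out single libraries, for values near 0. Their log2 ranges were -0.0865 to 0.0294 for FN1 ENSDARG00000006526, -0.0185 to 0.104 for FN1 ENSDARG00000019815 and -0.0915 to 0.0210 for LAMB1 ENSDARG00000101209 in H2A.Z-mCherry embryos, -0.0197 to 0.0898 for FN1 ENSDARG00000019815 and -0.0213 to 0.101 for ITGB1 ENSDARG00000071863 in wild-type embryos, and -0.182 to 0.154 for the difference in response of ITGA9.

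Leaving out a library gave 5 to 7 genes called with 5AzadC in H2A.Z-mCherry and 6 to 9 in wild-type embryos, 1 to 3 between genotypes under 5AzadC, 0 to 1 between genotypes in DMSO and 0 in the interaction. Shares of all tested genes under these fits are not given here, so the ranges describe the tested members only. A fit of the compared groups alone gave 1 gene between genotypes under 5AzadC against 2, since lamb2l stayed under the filter there. DESeq2 gave 1 gene in the interaction against 0, and the cause was not tested. The other settings kept these counts within 1.5 times. Over all genes, leaving out treated H2A.Z-mCherry replicate 2 lowered the calls in that genotype to 1389, against 2197.

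With the replicate number as a replicate block, 7 genes were called in H2A.Z-mCherry and 10 in wild-type embryos, 2 and 1 between genotypes and 0 in the interaction. The share of all tested genes called with the block is not given here. Libraries sharing a number did not deviate together (correlations -0.0265 to 0.024), so the numbers were not taken as pairs. No scaling moved the median of all genes by over 0.1. At totals of 1142051 to 1904063 counts, standard errors under 100 CPM reached 0.932 on the log2 scale, so only large changes could pass there.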
